A study of Caenorhabditis elegans with 2 samples.

Results

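The promoters of 71 genes for translation factors and aminoacyl-tRNA synthetases were examined for binding of GMEB-2-GFP in late embryos of Caenorhabditis elegans. Members were the protein-coding genes of the annotation whose symbols begin with eif-, eef-, ife- or iff-, with ifg-1 and inf-1, and the genes whose symbols are 1 letter followed by ars- and a number. They made up 71 of 19973 nuclear protein-coding genes. By symbol, 40 were classed as translation factors, made up of 27 initiation factors, 5 cap-binding proteins and 8 elongation factors, and 31 as synthetases. The synthetase gene ears-2, which fits the symbol pattern and had a stronger joint peak than every member, was left out by the rule. The rule goes by name, so subunits known under another symbol, such as egl-45 of the initiation factor eIF3, are not members. In the same way, eif-4A3 and eif-6 count as initiation factors by symbol alone, whatever the role of their products. The genes iff-1 and iff-2, for eIF5A, were placed with the elongation factors.

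The assay was ChIP-seq with an antibody against GFP. The worms were of strain OP622, with genotype unc-119(tm4063) III and the integrated transgene wgIs622, which adds GFP and FLAG to the C terminus of GMEB-2. Whole embryos of pooled sex were collected 5 h after synchronization by bleaching. There was 1 group of 2 biological replicates from this 1 line, and no strain without the tag or other factor was used here, so whether any value is particular to GMEB-2 was not tested. The promoter that drives the transgene is not given in the sources used here. In whole embryos, strong binding in a few cells and weak binding in many cannot be told apart.

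GMEB-2 is named after the glucocorticoid modulatory element binding proteins of vertebrates, transcription factors with a SAND domain that binds DNA. Translation begins when initiation factors bring the small ribosomal subunit, the initiator tRNA and the capped mRNA together. Elongation factors then deliver charged tRNAs and move the ribosome along the mRNA. The synthetases charge each tRNA with its amino acid.

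The values are the authors' signal for each called peak. Depth is unknown, since the lists hold no numbers of reads. The promoter window of a gene reached from 1000 bp before its 5′ end to 500 bp past it, and each gene was given the strongest peak with its summit there. Ranks run from 1, the highest signal of a list. Both replicate lists and the list of both replicates together (the joint list) held 30000 peaks each. A list thresholded by the irreproducible discovery rate (IDR), which uses agreement between replicates, held the 634 strongest joint peaks. Each list has its own scale, with a median signal of 36 in the joint list, 17.7 in replicate 1 and 24.4 in replicate 2.

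The joint summit with the 100 bases on either side of it is shown for the 6 members with the highest joint signal on chromosomes II, III and X. These let eIF3, elongation factor and synthetase peaks on those chromosomes be compared as DNA. The peaks of eif-3.C, the strongest of eIF3, and of eef-2 lie elsewhere and are described by their values. Each is read 5′ to 3′ on the strand of its gene, with the summit at base 101, from the RefSeq sequence of WBcel235 (the same assembly as ce11). Capitals mark the words ACGCGC and GCGCAC, the words CGCGCA and CGCAAG, their reverse complements, and the word TACGTA, the core of the motif known for the vertebrate proteins.
eif-3.D (chrIII:8971748-8971948, minus strand): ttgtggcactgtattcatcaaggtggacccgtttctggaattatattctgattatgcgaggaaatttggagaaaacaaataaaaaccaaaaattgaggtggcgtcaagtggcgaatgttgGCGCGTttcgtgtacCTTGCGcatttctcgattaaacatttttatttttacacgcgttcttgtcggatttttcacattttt
eif-3.B (chrII:14795105-14795305, plus strand): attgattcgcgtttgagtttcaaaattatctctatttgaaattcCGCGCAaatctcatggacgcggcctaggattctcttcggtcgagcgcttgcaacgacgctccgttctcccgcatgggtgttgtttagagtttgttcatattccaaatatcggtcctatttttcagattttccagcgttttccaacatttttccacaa
eef-1A.1 (chrIII:6971962-6972162, minus strand): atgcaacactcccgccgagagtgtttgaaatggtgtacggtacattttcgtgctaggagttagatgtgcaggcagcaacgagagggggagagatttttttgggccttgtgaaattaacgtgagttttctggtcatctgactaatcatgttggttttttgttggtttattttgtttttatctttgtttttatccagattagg
eef-1A.2 (chrX:7823182-7823382, plus strand): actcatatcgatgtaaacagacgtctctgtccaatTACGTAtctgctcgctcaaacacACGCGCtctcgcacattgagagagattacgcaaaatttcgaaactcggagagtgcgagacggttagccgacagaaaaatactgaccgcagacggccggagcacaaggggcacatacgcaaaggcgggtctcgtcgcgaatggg
iff-2 (chrII:8561347-8561547, minus strand): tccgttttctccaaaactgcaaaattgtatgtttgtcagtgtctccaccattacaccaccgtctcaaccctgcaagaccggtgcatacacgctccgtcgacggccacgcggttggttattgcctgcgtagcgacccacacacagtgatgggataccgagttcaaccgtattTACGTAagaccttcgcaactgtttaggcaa
kars-1 (chrII:7072629-7072829, minus strand): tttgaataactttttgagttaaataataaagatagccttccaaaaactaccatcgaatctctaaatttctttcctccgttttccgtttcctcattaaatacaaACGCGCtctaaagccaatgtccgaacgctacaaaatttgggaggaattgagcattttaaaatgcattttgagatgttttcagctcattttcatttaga

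The strongest peaks among the members lay at genes for eIF3 and for elongation factors. The 5 members with an IDR summit were eif-3.C, eef-1A.1, eif-3.D, eef-2 and eef-1A.2. They were 5 of the 40 translation factors (12.5%) and 0 of the 31 synthetases, against 2.22% of all protein-coding genes. Among 31 genes a single gene is a share of 3.23%, so the count of 0 is not set apart from the background. In the stronger 50% of the IDR list, 1 translation factor (eif-3.C) and 0 synthetases had a summit, against 1.09% of all genes. At the 1000 strongest joint peaks, 9 of the 40 translation factors (22.5%) and 0 of the 31 synthetases had a summit, against 3.24% of all genes. At the 5000 strongest, the counts were 12 translation factors (30.0%) and 5 synthetases (16.1%), against 10.3% of all genes. Any joint summit was found for 31 translation factors (77.5%) and 18 synthetases (58.1%), against 40.2% of all genes. With a gene lacking a summit set at rank 30001, the median joint rank was 13043.5 for translation factors, 23992 for synthetases and 30001 for all genes. The translation factors had the higher share at each of these limits. With the window from 1000 bp upstream to 500 bp downstream, any joint summit was more frequent in both classes than over all genes. These are counts over complete gene sets with no test. With each peak given only to the nearest 5′ end, 3 translation factors and 0 synthetases had an IDR summit, against 1.57% of all genes. Without the stretch downstream of the 5′ end, 3 synthetases were among the 5000 strongest, against 8.50% of all genes, and their median rank was 30001, as for all genes.

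**Figure D1:**
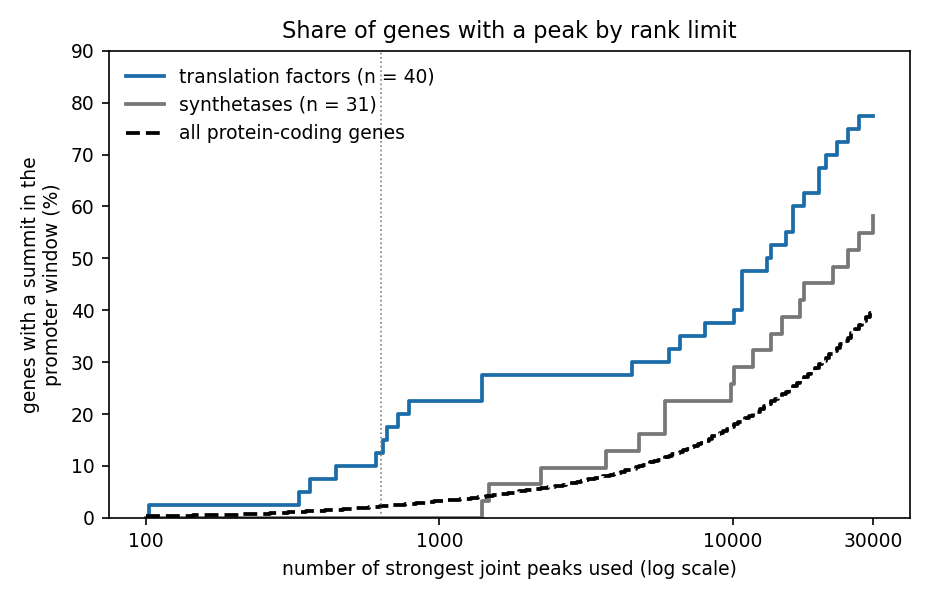
Share of genes (%, vertical axis) with a summit in the promoter window against the number of strongest joint peaks used (log scale), for translation factors, synthetases and all protein-coding genes, with the end of the IDR list at 634 dotted. At 1000 peaks the translation factors stand at 22.5%, the synthetases at 0 and all genes at 3.24%.

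Within the translation factors the strong peaks were held by the eIF3 and elongation factor genes. This grouping and the limit of 1000 peaks were chosen after the values were seen. Of 11 eIF3 genes, 5 (45.5%) had a summit among the 1000 strongest joint peaks, and of 8 elongation factor genes, 4 (50%) did, against 3.24% of all genes. At the stricter limit of the stronger 50% of those peaks, the counts were 2 and 2, against 1.76% of all genes. None of the other 52 members did. The median joint rank was 5931 for eIF3 and 1008 for elongation factors, against 21239 for the other 52. In replicate 1 alone the medians were 8037 for eIF3 and 14263.5 for elongation factors, against 21056.5 for the other 52. In replicate 2 alone they were 8818 and 1313, against 17011.5, so the low elongation factor median rested on replicate 2.

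**Figure D2:**
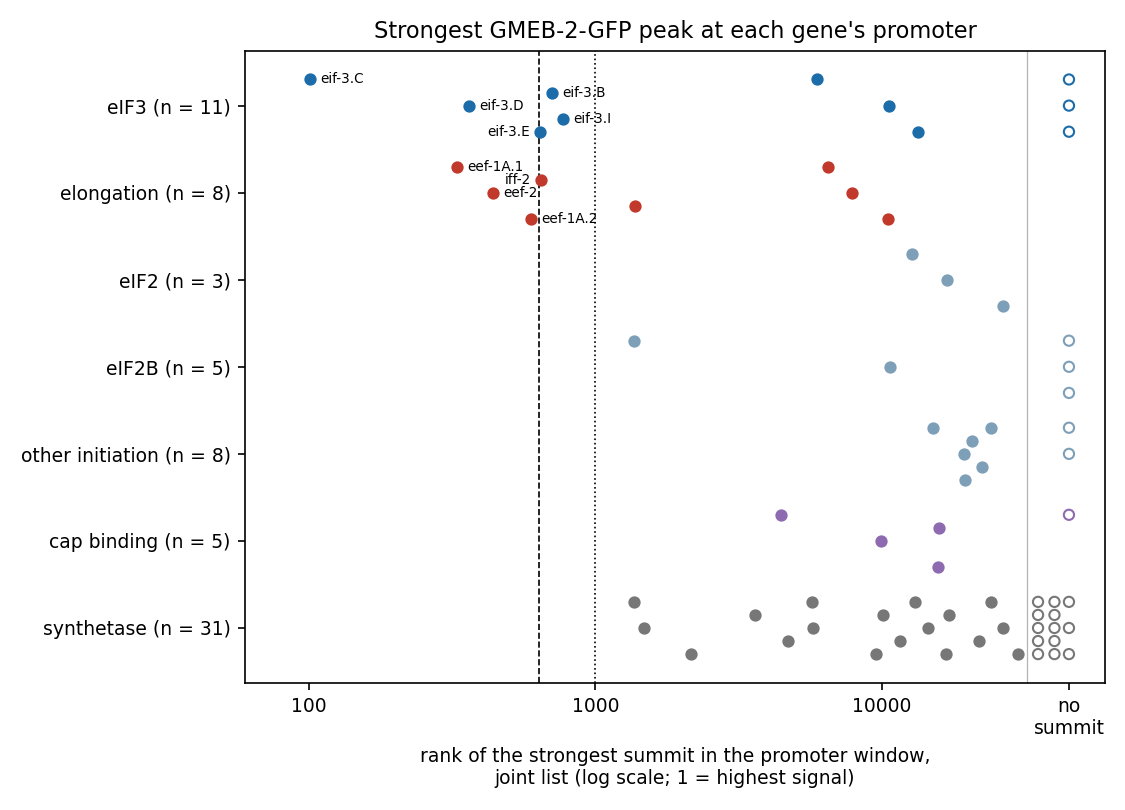
Rank of the strongest summit in each member's promoter window in the joint list (log scale), with 1 point for each gene and open points for genes without a summit. The dashed line marks the end of the IDR list at rank 634 and the dotted line rank 1000, and the 9 points left of the dotted line are 5 eIF3 and 4 elongation factor genes.

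The complex eIF3 binds the small ribosomal subunit and holds the other initiation factors around it. The core subunit gene eif-3.C had the strongest peak of all members, at chromosome I, 9979836 to 9979984, with its summit 232 bp upstream. Its joint signal was 249.7 (rank 101), and the same peak had a signal of 115 in replicate 1 (rank 77) and 126 in replicate 2 (rank 157). It was high in both replicates, and 54 protein-coding genes had a better joint rank. The gene eif-3.D, for a subunit that in mammals can itself bind the mRNA cap, had a joint signal of 124 (rank 363), with 40.6 in replicate 1 (rank 689) and 80.7 in replicate 2 (rank 331). Its summit lay 270 bp upstream and 44 bp from R08D7.4, a gene on the opposite strand.

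Both eif-3.E and eif-3.I were in the upper part of both replicate lists although outside the IDR list. For eif-3.E the joint signal was 91.3 (rank 640), with 48.0 in replicate 1 (rank 436) and 52.0 in replicate 2 (rank 897). For eif-3.I it was 83.4 (rank 772), with 39.6 in replicate 1 (rank 743) and 48.0 in replicate 2 (rank 1171). The core subunit gene eif-3.B was uneven, with a joint signal of 87.1 (rank 703) but 21.7 in replicate 1 (rank 8037) and 67.6 in replicate 2 (rank 470). The remaining eIF3 genes were far lower. The best was eif-3.G at joint rank 5931, followed by eif-3.J at 10609 and eif-3.F at 13363. The genes eif-3.H, eif-3.K and eif-3.L had no joint summit. Strong and absent peaks thus occurred side by side within the genes of 1 complex.

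Of the 16 initiation factors outside eIF3, 0 had a summit among the 1000 strongest joint peaks, against 3.24% of all genes. Among the 5000 strongest, 1 (6.25%) did, against 10.3% of all genes. With so few genes, neither count is set apart from the background. Any joint summit was found for 11 (68.8%), against 40.2% of all genes. For eIF2, which carries the initiator tRNA, the joint ranks were 12724 for eif-2alpha, 16943 for eif-2beta and 26576 for eif-2gamma. For eIF2B, which recharges eIF2 with GTP, eif-2Bgamma had a joint signal of 70.1 (rank 1366), with 38.4 in replicate 1 (rank 834) and 28.5 in replicate 2 (rank 9295). That summit lay 977 bp upstream, inside an intron of its upstream neighbour C15F1.5, and was strong in replicate 1 alone. The gene eif-2Bbeta ranked 10651, and eif-2Balpha, eif-2Bdelta and eif-2Bepsilon had no joint summit. Among 8 further initiation factor genes the best was inf-1, for the RNA helicase eIF4A, at joint rank 15029. The peak of eif-1, a start codon selection factor gene, ranked 19516 in the joint list but 1614 in replicate 1, and replicate 2 had no summit within 200 bp of it. The scaffold gene ifg-1 (eIF4G) and eif-2D had no joint summit, although the window of eif-2D held a peak at rank 3475 in replicate 1. Of the 5 genes for the cap-binding protein eIF4E, ife-4 ranked best with a joint signal of 51.6 (rank 4436), and ife-3 had no joint summit. The window of ife-3 nevertheless held a peak of signal 44.9 in replicate 2 (rank 1518), with its summit 999 bp upstream.

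All 8 elongation factor genes had a joint summit. The genes eef-1A.1 and eef-1A.2 both encode eEF1A, which brings charged tRNAs to the ribosome. For eef-1A.1 the joint signal was 131 (rank 329), with 47.0 in replicate 1 (rank 461) and 85.1 in replicate 2 (rank 305). For eef-1A.2 it was 95.1 (rank 594), with 48.4 in replicate 1 (rank 423) and 45.3 in replicate 2 (rank 1484). In joint signal eef-1A.1 was the higher of the pair, while in replicate 1 the order was the other way and the signals were close. The eef-1A.1 summit, 350 bp upstream, was nearer to the 5′ end of rfc-4, a replication factor gene on the opposite strand 191 bp away.

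The gene eef-2, for the factor that moves the ribosome by 1 codon, had a joint signal of 112 (rank 438), with 37.1 in replicate 1 (rank 945) and 70.0 in replicate 2 (rank 440). Its summit lay 41 bp upstream of eef-2 and also in the promoter window of clsp-1. The gene iff-2, for eIF5A, which helps the ribosome past stalling sequences, had a joint signal of 90.8 (rank 646). The peak had a signal of 77.6 in replicate 2 (rank 353), and replicate 1 had no summit within 200 bp of it. This peak rested on replicate 2 alone. The IDR list ended between these values, since eef-1A.2 at rank 594 was the last member inside it, and eif-3.E at 640 and iff-2 at 646 were the first outside it.

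The weaker elongation factor genes were those for the exchange factor of eEF1A and the second eIF5A gene. For eef-1B.1 the joint signal was 70.1 (rank 1370), with 28.8 in replicate 1 (rank 2613) and 48.3 in replicate 2 (rank 1142). The eIF5A gene iff-1 ranked 6478, the gamma subunit gene eef-1G 7857 and eef-1B.2 10470.

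The synthetase peaks were weaker and often uneven between replicates. The strongest was at kars-1, for the lysine enzyme, with a joint signal of 70.1 (rank 1365), 16.1 in replicate 1 (rank 19404) and 47.2 in replicate 2 (rank 1251). The phenylalanine subunit gene fars-3 had a joint signal of 68.6 (rank 1476), with 21.8 in replicate 1 (rank 7912) and 53.3 in replicate 2 (rank 837). Both were strong in replicate 2 alone. For dars-1, the aspartate enzyme, the signal was 62.0 (rank 2164), with 14.9 in replicate 1 (rank 22803) and 45.7 in replicate 2 (rank 1442). That summit lay 870 bp upstream, inside a coding exon, and was nearer to ctr-9. For gars-1, the glycine enzyme, it was 54.4 (rank 3614), with 18.3 in replicate 1 (rank 13756) and 38.5 in replicate 2 (rank 2885), 423 bp downstream of the 5′ end in an intron. The methionine enzyme gene mars-1 went the other way, with a joint signal of 50.9 (rank 4685), 28.6 in replicate 1 (rank 2681) and 23.7 in replicate 2 (rank 16067). Next came pars-2, for the proline enzyme, at rank 5725 and cars-1, for the cysteine enzyme, at rank 5728.

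Split by symbol, 4 of the 20 synthetases numbered 1 (20%) and 1 of the 11 with another number (9.09%), fars-3, had a summit among the 5000 strongest joint peaks, against 10.3% of all genes. The 13 synthetases without a joint summit were aars-2, dars-2, fars-1, hars-1, iars-1, iars-2, lars-2, nars-2, pars-1, sars-1, vars-1, wars-1 and yars-1. Of all members, 7 had no summit in any of the joint and replicate lists (9.86%), against 41.5% of all genes. They were eif-3.L and the synthetases dars-2, iars-1, iars-2, lars-2, pars-1 and sars-1. The gene aars-2, for an alanine enzyme, had no joint summit although its window held a peak at rank 4147 in replicate 1, with its summit 131 bp upstream, and another at rank 2759 in replicate 2, with its summit 423 bp upstream. These summits lay more than 200 bp apart, so they were not counted as the same peak. The synthetase that the symbol rule left out, ears-2, had a joint signal of 455 (rank 18), with 175 in replicate 1 (rank 23) and 282 in replicate 2 (rank 19). With it, 1 synthetase would have an IDR summit, so the count of 0 depends on that exclusion.

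In the replicates alone, the 634 strongest peaks of replicate 1 had a summit at 4 translation factors (10.0%) and 0 synthetases, against 2.02% of all genes. Those of replicate 2 had one at 6 translation factors (15%) and 0 synthetases, against 2.19% of all genes. The 1000 strongest peaks had a summit at 8 translation factors (20%) and 0 synthetases in replicate 1, against 2.83% of all genes, and at 7 (17.5%) and 1, fars-3, in replicate 2, against 3.05%. A summit among the 5000 strongest peaks of both replicates was found for 8 translation factors (20%) and 1 synthetase (3.23%), against 4.56% of all genes. That synthetase was aars-2, whose summits in the replicates were separate peaks. Synthetases among the 5000 strongest numbered 2 in replicate 1 (9.81% of all genes) and 6 in replicate 2 (10.1% of all genes), so the joint count of 5 leaned on replicate 2. Of the 9 members at joint rank 1000 or better, 8 had the same peak in both replicates, with 200 bp allowed between summits. In 5 of the 9 it was among the 1000 strongest of both, and in 2 of them, eif-3.C and eef-1A.1, among the 634 strongest of both. Over all 49 members with a joint summit, the peak was found in both replicates for 29, in replicate 1 alone for 5, in replicate 2 alone for 10 and in neither for 5. These counts of matched peaks were not set beside all genes, so they cannot be read as high or low. Across those 29, which share the same libraries and were chosen by joint rank, Spearman's rho between the replicates' ranks was 0.543, as a description across genes.

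**Figure D3:**
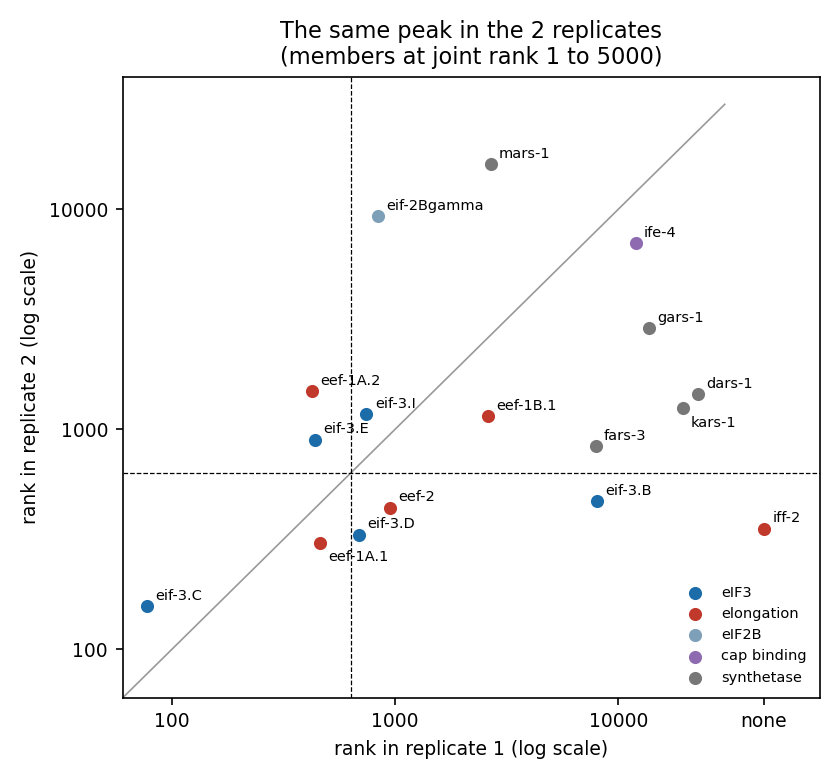
Rank of the same peak in replicate 1 (horizontal, log scale) and replicate 2 (vertical, log scale) for members at joint rank 5000 or better, with dashed lines at rank 634 and the diagonal marking equal ranks. Peaks of eif-3.C and eef-1A.1 lie inside both dashed lines, iff-2 has none in replicate 1, and kars-1, fars-3, dars-1 and gars-1 lie far below the diagonal.

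The strong peaks lay close to the 5′ ends. All 9 summits at joint rank 1000 or better were upstream and within 400 bp, at a median offset of -209 bp and between -372 and -41 bp, and all were intergenic. Of all genes with a summit in that range, 59.0% had it in this stretch and 90.6% had it upstream, at a median offset of -241 bp. In 7 of the 9 the member was the nearest gene, and over all genes with a summit in that range the share was 72.2%. In 6 of the 9 the window of another gene held the summit too, so the peak cannot be assigned to the member alone. That count was not set beside all genes. From there to rank 5000, 6 of 8 members had an upstream summit, and below rank 5000, 20 of 32 did, against 77.2% and 67.3% of all genes. The member was the nearest gene for 7 of the 8 and for 20 of the 32, against 82.3% and 85.6% of all genes. None of the 49 summits lay within 200 bp of a tRNA or snoRNA gene, and no peak was shared by 2 members. Of all 483 promoter summits at joint rank 1000 or better, 415 lay away from such genes. For the weaker summits no such count over all promoters was used.

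**Figure D4:**
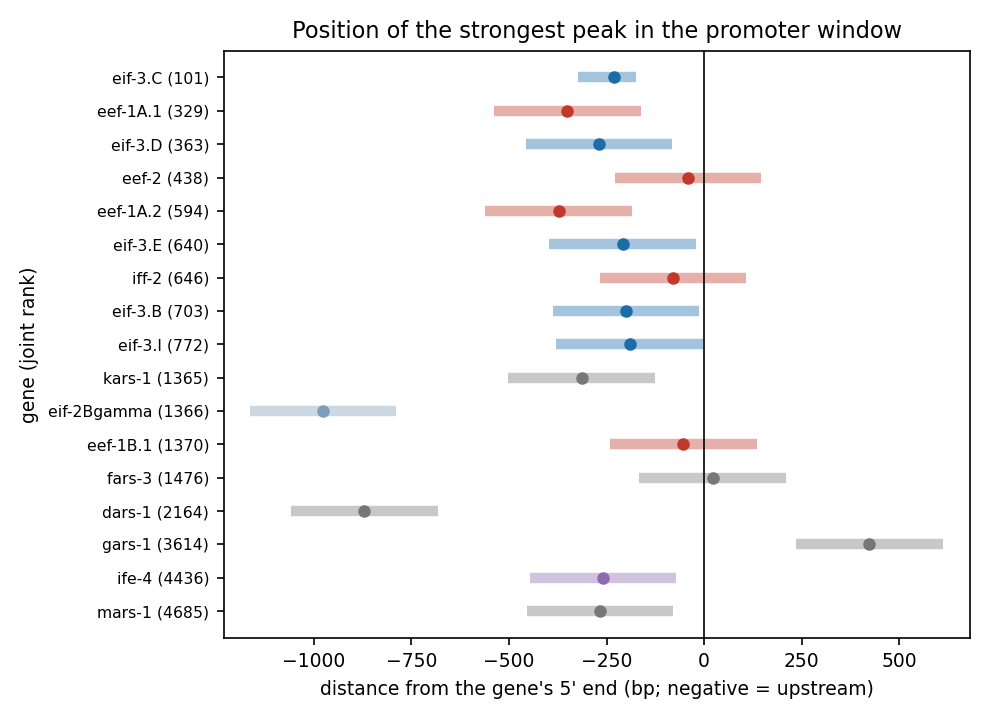
Position of the strongest joint peak relative to the gene's 5′ end (bp, negative upstream) for the 17 members at joint rank 5000 or better, with bars for the called interval and points for the summit. The 9 strongest have summits between -372 and -41 bp, whereas eif-2Bgamma, dars-1 and gars-1 lie farther away.

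Downstream genes in worm operons are transcribed from the promoter of an upstream gene. A protein-coding neighbour on the same strand, ending within 500 bp upstream, was found for 11 of 31 synthetases (35.5%) and 7 of 40 translation factors (17.5%), against 18.7% of all genes. No operon annotation was used. Among genes without such a neighbour, 8 of 33 translation factors (24.2%) and 0 of 20 synthetases had a summit among the 1000 strongest joint peaks, against 3.42% of all such genes. Their median joint rank was 15029 for translation factors and 20583 for synthetases, against 30001 for all such genes. These medians lay closer together than those of the whole classes, and the part of upstream neighbours in the ranks was not tested.

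Of the words capitalised in the sequences above, all but TACGTA came from earlier results on these same peaks, so their presence is a description. Within 100 bases of the summit, at least 1 of these 4 words, on either strand, was found for 6 of the 9 members at joint rank 1000 or better (66.7%). It was found for 50.1% of all 483 promoter summits in that range. Of the 40 members with weaker summits 6 held a word (15%), as did 17.0% of all weaker promoter summits. The words overlap each other in sequence (ACGCGC and the word CGCGCA, for example), so they are not separate matches. All 5 eIF3 members at rank 1000 or better held a word, and of the 4 elongation factors eef-1A.2 did. The window of eif-3.D shown above held the words ACGCGC and CGCAAG, both as the reverse complement, and that of eif-3.B held CGCGCA. The windows of eef-1A.1 and eef-2 held none of these words. At kars-1, the centre of ACGCGC lay 5.5 bp from the summit, the only word in that window. TACGTA was found at eef-1A.2 and iff-2, in 2 of 9 windows (22.2%), and in 0 of the 40 weaker ones. Of all 483 promoter windows at rank 1000 or better, 6 held it (1.24%), these 2 among them, as did 1.49% of weaker ones. Of these 2 peaks, that of iff-2 rested on replicate 2 alone. In windows of the same length from 300 to 100 bp upstream of all genes, whatever their peaks, 25.4% of the members and 12.4% of all genes held at least 1 of the 4 words. There, TACGTA was found for 0 of the 71 members and for 2.06% of all genes. Windows of the strong members had a mean GC content of 42.8%, against 44.0% for all promoter windows in that range, and the weaker members had 38.2%, against 39.9%. The part of GC content in the word counts was not tested. All 36-base words in the members' windows at joint rank 1500 or better occurred once in the nuclear genome.

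Other genes of the translation pathway that are no members were read in the same way, from a list of release factors, poly(A) and cap proteins, kinases, mitochondrial factors and charging partners. Of 28 such genes, 3 (10.7%) had a summit of the IDR list, against 2.22% of all genes. With each peak given only to the nearest 5′ end, 1 did, against 1.57% of all genes, and with a window of 500 bp on either side, 1 did, against 1.69%. The strongest was erfa-3, for the release factor eRF3, with a joint signal of 183 (rank 189), rank 165 in replicate 1 and rank 205 in replicate 2. The ATPase gene abcf-2 followed with a joint signal of 133 (rank 324), but its summit lay 853 bp upstream and nearest to ant-1.1. The RNA-binding protein gene larp-1 had 119.7 (rank 390), with the summit 707 bp upstream and nearest to wip-1. In the joint list, 5 of the 28 (17.9%) were among the 1000 strongest and 10 (35.7%) among the 5000 strongest, against 3.24% and 10.3% of all genes. The poly(A)-binding protein gene pab-2 (rank 679) and the mitochondrial elongation factor gene gfm-1 (rank 790) were the other two among the 1000 strongest.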

How the data were processed

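ChIP-seq peak lists of 2 biological replicates of 1 strain, on ce11, were used. Per the labels, the authors called relaxed lists of peaks and background for each replicate and for both together, with a control, and an IDR-thresholded list. The signal of each peak is the authors' deposited value. For the peak caller, its scaling, the aligner and the IDR threshold, nothing was given in the sources used here. No read counts were used and the depth is unknown, so no interval was computed. Lists on ce10 were not used.

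Genes came from Ensembl release 115 on WBcel235, the assembly of ce11. Summits were assigned to windows from 1000 bp upstream to 500 bp downstream of the annotated gene 5′ end, and ranked by signal. Peaks were matched between lists within 200 bp. Python 3.11.15, pandas 2.3.3, numpy 2.4.6, scipy 1.17.1 and matplotlib 3.10.9 were used, and the assignment was tested on simulated data. Members, word lists and gene lists were chosen with earlier results of these data known. Named genes were the members with an IDR summit, the 20 with the highest joint signal, the best and the absent ones of each class, and listed non-members with an IDR summit. Others were named after their values were seen. Of 41 symbols on the list of other translation genes, 28 were annotated under that symbol. With 1 group, no test between samples was possible. Alternatives were other windows, other transcript ends, nearest-gene assignment, removal of peaks at tRNA and snoRNA genes, stricter rank limits, interval overlap and either replicate alone.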

Additional observations from a re-analysis of the deposited data

How the results depend on the processing

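The stricter lists kept the stronger 50% of the ranks. With a replicate left out, the other replicate's own list was read at the same rank limits, since IDR needs both. There an IDR count is a count among that replicate's 634 strongest peaks. The count of 0 synthetases with an IDR summit stayed at 0 under all 9 alternatives. Narrower windows, nearest-gene assignment, removal of peaks at tRNA and snoRNA genes and the stricter limit could not raise a count. Under those settings the 0 was fixed in advance. In all, 60 of 79 recomputed values stayed within 1.5 times the reported count, or within 1 SD between replicates of the reported median, and 19 moved. Of the 60, 9 were that count of 0, which was in part fixed in advance. Translation factors with an IDR summit numbered 3 with each peak given to the nearest 5′ end and 1 with the stricter IDR list (1.09% of all genes). Among the 634 strongest peaks of a single replicate they numbered 4 to 6. Translation factors among the 5000 strongest peaks of a single replicate numbered 12 in each, and 8 genes were common to both counts. Their median rank was 16334 with a window of 500 bp on either side, 15446 without the 500 bp downstream and 18117.5 by nearest 5′ end, and 10857 to 13245.5 with either replicate left out. Synthetases among the 5000 strongest joint peaks numbered 3 without the downstream stretch and 3 at the stricter limit. Among the 5000 strongest of a single replicate they numbered 2 to 6. The 2 came without replicate 2. Their median rank was 30001 with 500 bp on either side, without the downstream stretch and by nearest 5′ end, 17174 by interval overlap, and 18047 to 22803 with either replicate left out. Over the 3 settings at 30001 the synthetase median therefore equalled that of all genes. Other translation genes with an IDR summit numbered 1 with 500 bp on either side, by nearest 5′ end and with the stricter list. Among the 634 strongest peaks of a single replicate they numbered 3 to 4. The eIF3 and elongation factor counts of 5 and 4 were 2 and 2 at the stricter limit, and 4 and 3 with either replicate left out. Alternatives for these groups and for the other translation genes were chosen after seeing the data. The cause of these moves was not tested. No paired analysis was possible because there was 1 group. The unknown depth, the 2 replicates and windows shared between neighbouring genes limit every count.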

Other observations

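Outside the promoter windows, a gene body of 1 member held a peak of the IDR list. In fars-1, for a phenylalanine subunit, the peak at chromosome I, 6212659 to 6213034, had a joint signal of 167 (rank 216), rank 351 in replicate 1 and rank 169 in replicate 2. Its summit lay 1838 bp downstream of the 5′ end and within 200 bp of the snoRNA gene T08B2.13. This was the IDR summit closest to any synthetase 5′ end, against a median of 57021 bp over the 31 synthetases. Neither the count of 1 gene body nor this median was set beside all genes, so neither can be read as high or low. The next strongest gene-body peaks of synthetases were at joint rank 1919 in tars-1, 1956 in sars-1 and 2051 in qars-1.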
